A study of Homo sapiens with 8 samples.

Results

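The genes described here encode the subunits, activators and assembly factors of the proteasome in LP-1 cells, a human multiple myeloma cell line. They were taken from the deposited gene table by symbol (PSMA, PSMB, PSMC, PSMD, PSME, PSMF or PSMG followed by a number, plus POMP, NFE2L1 and DDI2), which gave 50 genes of the 18564 in the table. The cells were either wild type (WT) or bortezomib resistant (BR), the latter kept with bortezomib for 2 months, and each line received vehicle (DMSO) or SI-2 at 25 nM for 24 h. SI-2 is a compound that inhibits the coactivator SRC-3. Each of the 4 conditions (WT vehicle, WT SI-2, BR vehicle, BR SI-2) had 2 libraries, 8 in all. All libraries come from 1 cell line and its resistant derivative, and the labels do not name separate cultures or clones, so p-values measure only the spread between these libraries, which may be technical.

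The proteasome degrades proteins tagged with ubiquitin. Its core, the 20S particle, is a barrel of alpha rings (PSMA genes) around beta rings (PSMB genes), and 3 of the beta subunits cut peptide bonds: PSMB5 (the chymotrypsin-like site, which bortezomib blocks), PSMB6 (caspase-like) and PSMB7 (trypsin-like). In immune cells these can be replaced by PSMB8, PSMB9 and PSMB10, which form the immunoproteasome and favour peptides for MHC class I. The 19S particle, of ATPases (PSMC) and non-ATPase subunits (PSMD), recognises and unfolds the substrate; PSME proteins are other activators, PSMF1 is an inhibitor, and POMP and the PSMG chaperones help to assemble the core. NFE2L1 is the transcription factor that raises proteasome genes when the proteasome is inhibited, and DDI2 is the protease that activates it. Plasma cells and myeloma cells make large amounts of secreted protein and are known for their sensitivity to proteasome inhibitors.

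Estimated counts summed to between 17997771 and 18570027 per library. The proteasome genes took between 0.617% and 0.669% of these counts. Of 9 plasma cell markers, 8 had a median above 1 FPKM (fragments scaled by transcript length and library size), among them JCHAIN at 3608 FPKM and XBP1 at 512 FPKM, while SLAMF7 had a median of 0.40 FPKM. The 2 markers of t(4;14) myeloma, FGFR3 and NSD2, summed to between 234 and 297 FPKM in WT and between 341 and 423 FPKM in BR libraries. The 4 B cell markers summed to at most 0.43 FPKM, the 2 T cell markers found to at most 0.22 FPKM and the 3 myeloid markers, with LYZ as the main one, to between 1.65 and 3.28 FPKM. One library stood apart: the 3 fibroblast markers summed to 15.1 FPKM in BR SI-2 replicate 2, with COL1A1 at 9.84 FPKM, against at most 0.10 FPKM in any other library. The part of that RNA in the results below was not tested, and its effect on the results is given beside those that moved most without it.

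Levels differed far more between proteasome genes than between libraries. PSMB4, a non-catalytic beta subunit, was highest, at 389 to 533 FPKM (mean 457). It was followed by PSMD4, the 19S receptor for ubiquitin chains (mean 236 FPKM), then NFE2L1 (212 FPKM) and PSMA7 (187 FPKM). The lowest of the detected genes were PSMD5, a chaperone of 19S assembly (mean 11.3 FPKM), PSMD9, another such chaperone (9.33 FPKM), and DDI2 (3.62 to 4.59 FPKM). PSMB11, the beta subunit of the thymus proteasome, had 0 or 1 counts in each library, below the 3 counts that a count of 0 allows, and it was the only gene of the 50 that did not pass the filter on low counts.

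The group medians of the mean FPKM were 105 for the 7 alpha subunits, 77.4 for the 7 detected constitutive beta subunits, 82.1 for the 6 ATPases, 49.2 for the 14 non-ATPase 19S genes and 37.9 for the 5 assembly factors. Genes were grouped by symbol, so the non-ATPase 19S group holds all PSMD genes, among them the chaperones PSMD5 and PSMD9. The 3 immunoproteasome genes lay close together: PSMB10 had a mean of 55.5 FPKM, PSMB8 of 53.3 FPKM and PSMB9 of 35.1 FPKM. In the order of all 50 levels, 45 of the 49 pairs of neighbours overlapped in their range over the libraries. Only the steps below PSMB4, below PSMD12, below PSMD9 and below DDI2 were free of overlap. Within a gene, the highest library exceeded the lowest by a median of 1.39-fold in FPKM, and only PSMB6, PSMB9, PSMC1 and PSMC5 differed by 2-fold or more in FPKM.

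**Figure D1:**
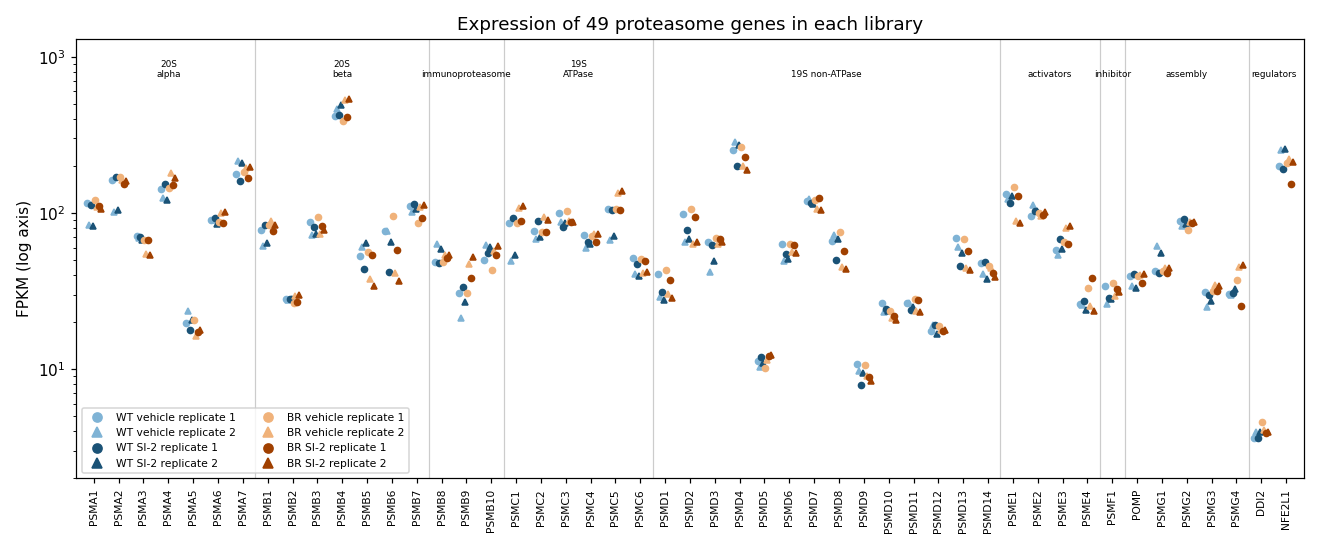
FPKM (log axis) of the 49 proteasome genes that passed the filter, grouped by role, with 1 point per library (blue WT, orange BR, light vehicle, dark SI-2, circles replicate 1, triangles replicate 2). PSMB4 lies above all others at 389 to 533 FPKM and DDI2 below all others at 3.62 to 4.59 FPKM, and the 8 points of most genes lie close together.

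The next question was whether the target of bortezomib, or its neighbours at the catalytic sites, differed in resistant cells. Values are CPM, counts scaled to library size, with TMM factors, given as replicate 1 and replicate 2. PSMB5 had 42.6 and 49.01 CPM in WT vehicle, 33.5 and 49.9 CPM in WT SI-2, 47.3 and 29.4 CPM in BR vehicle and 41.2 and 25.7 CPM in BR SI-2 libraries. The lines overlapped: BR was lowest in both replicate 2 libraries and lay among the WT values in replicate 1. Over both treatments the means were 43.7 ± 7.57 CPM in WT and 35.9 ± 10.1 CPM in BR (SD, n = 4), and the log2 fold change of BR over WT was -0.29 (95% confidence interval -0.72 to 0.15, edgeR quasi-likelihood adjusted p = 0.531). The interval covers both no difference and a PSMB5 level lower by 0.72 on the log2 scale. Leaving out 1 library moved the value from -0.45 (without BR vehicle replicate 1) to -0.15 (without BR SI-2 replicate 2, the library with fibroblast markers).

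PSMB6 was the most variable catalytic gene. It had 65.2 and 63.9 CPM in WT vehicle, 34.7 and 55.1 CPM in WT SI-2, 81.1 and 33.3 CPM in BR vehicle and 48.9 and 28.8 CPM in BR SI-2 libraries. The SI-2 library was the lower one in each of the 4 pairs of the same line and replicate number, and the 2 BR vehicle libraries differed from each other more than the lines did. PSMB7 was steady by comparison, with WT libraries from 102 to 113 CPM and BR libraries from 88.5 to 106 CPM.

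Of the immunoproteasome genes, PSMB9 had the clearest line difference. It had 32.1 and 22.1 CPM in WT vehicle, 34.2 and 28.0 CPM in WT SI-2, 32.7 and 47.1 CPM in BR vehicle and 40.1 and 50.6 CPM in BR SI-2 libraries. The 3 values above 40 CPM were all from BR cells, and BR vehicle replicate 1 lay within the WT range. The log2 fold change of BR over WT over both treatments was 0.55 (95% confidence interval 0.19 to 0.92, 1.47-fold), with an unadjusted p of 0.00702 and an edgeR adjusted p of 0.201, which did not pass 0.05. PSMB8 (WT 65.2 ± 8.30 CPM, BR 61.1 ± 1.48 CPM) and PSMB10 (WT 57.0 ± 5.54 CPM, BR 52.2 ± 5.73 CPM; SD, n = 4) had log2 fold changes of -0.09 (95% confidence interval -0.32 to 0.14) and -0.12 (-0.37 to 0.12), with edgeR adjusted p-values of 0.700 and 0.636.

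**Figure D2:**
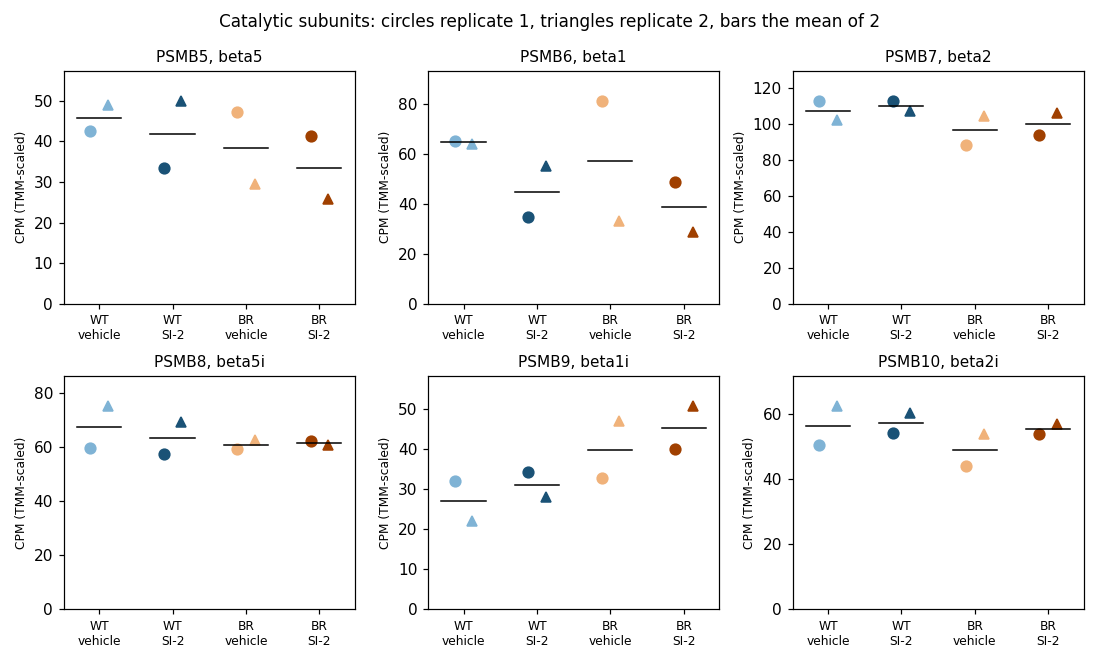
TMM-scaled CPM of the constitutive catalytic subunits PSMB5, PSMB6 and PSMB7 (top) and of their immunoproteasome counterparts PSMB8, PSMB9 and PSMB10 (bottom) in the 4 conditions, each axis starting at 0; bars are means of 2 libraries. In BR cells the replicate 2 triangles are the low PSMB5 (29.4 and 25.7 CPM) and the high PSMB9 (47.1 and 50.6 CPM) values. The replicate 1 circles of BR lie within the WT range for PSMB5. For PSMB9 the vehicle circle (32.7 CPM) lies within it and the SI-2 circle (40.1 CPM) above it.

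The balance of immune to constitutive subunits, taken per length as a ratio of FPKM, followed the same libraries. PSMB8 over PSMB5 was 1.43 in BR vehicle replicate 2 and 1.59 in BR SI-2 replicate 2, and between 0.861 and 1.10 in the other 6 libraries. PSMB9 over PSMB6 was 1.14 and 1.42 in those BR libraries and between 0.279 and 0.795 in the others. PSMB10 over PSMB7 stayed between 0.452 and 0.617 in all 8. These ratios are descriptions, since the 2 BR libraries were singled out after their values were seen.

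Across the whole set, the proteasome genes divided about evenly between higher and lower in BR cells. Over both treatments, 26 of 49 genes were higher and 23 lower in BR, with a median log2 fold change of 0.02, against 0.00 over all 13520 genes tested. None of the 49 had an edgeR adjusted p under 0.05, while 0.362% of all genes did. At an unadjusted p under 0.05 there were 6 of 49 (12.2%), against 14.4% of all genes, so the share was near the background. In no gene did the 4 BR libraries lie all above or all below the 4 WT libraries, while 3.75% of all genes had BR apart and higher and 4.37% BR apart and lower. All 49 confidence intervals of this fit lay within 2-fold in either direction. The fit takes the 4 libraries of a line as independent. Vehicle and SI-2 libraries of one line and replicate number deviated together (r = 0.62 in WT and 0.58 in BR over all genes compared), so these intervals may be too narrow. Under vehicle alone 45 of 49 intervals lay within 2-fold, under SI-2 alone 44, and within replicate 2 alone 43. DESeq2 and limma also called 0 of the 49.

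By role, the 6 ATPases of the 19S base all had values above 0 (median log2 fold change 0.09), 5 of 14 non-ATPase subunits were higher and 9 lower (median -0.05), and 4 of 7 alpha and 3 of 7 constitutive beta subunits were higher. The 6 genes at an unadjusted p under 0.05 were all higher in BR and came from several of these groups. Beside PSMB9 they were the ATPases PSMC5 (log2 fold change 0.43, 95% confidence interval 0.07 to 0.78) and PSMC1 (0.44, 0.02 to 0.86), the activator of nuclear proteasomes PSME3 (0.25, 0.03 to 0.48), and the assembly chaperones PSMG4 (0.34, 0.04 to 0.64) and PSMG3 (0.24, 0.01 to 0.47). Their edgeR adjusted p-values were between 0.201 and 0.335. The number at an unadjusted p under 0.05 fell to 1 without any single replicate 2 library and to 2 with condition terms, and it was 13 without BR vehicle replicate 1. The shares of all genes in those fits are not reported here, so these counts are not read as a result about the proteasome genes.

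Neither the regulators nor POMP passed the test between the lines. NFE2L1 had 931 and 1171 CPM in WT vehicle, 875 and 1175 CPM in WT SI-2, 973 and 981 CPM in BR vehicle and 714 and 919 CPM in BR SI-2 libraries. Its log2 fold change of BR over WT was -0.21 (95% confidence interval -0.51 to 0.08, edgeR adjusted p = 0.498). DDI2 was between 9.67 and 12.7 CPM in all libraries (log2 fold change 0.09, 95% confidence interval -0.17 to 0.36, adjusted p = 0.739), and the core maturation protein POMP was between 48.7 and 59.1 CPM (0.06, -0.16 to 0.27, adjusted p = 0.813).

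Within vehicle alone and within SI-2 alone, with 2 libraries a side, edgeR again called 0 of 49 proteasome genes, against 0% and 0.0072% of all 13896 genes tested. At an unadjusted p under 0.05 there were 0 of 49 in each, against 3.89% and 4.09% of all genes, and DESeq2 and limma called 0 as well. PSMB9 had the smallest p in both: a log2 fold change of 0.56 under vehicle (95% confidence interval -0.01 to 1.13, edgeR adjusted p = 0.967) and 0.55 under SI-2 (-0.02 to 1.11, adjusted p = 0.998). With vehicle it was followed by PSME3 (0.34), PSMG4 (0.42), PSMC5 (0.44) and PSMC1 (0.48), and with SI-2 by NFE2L1 (-0.33), PSMC5 (0.42), PSMG3 (0.28) and PSMC1 (0.40), all as log2 fold changes with adjusted p-values of 0.967 and 0.998. With 2 libraries a side these sizes depended on single libraries. Leaving out 1 library moved PSMC1 from 0.14 to 0.95, PSMC5 from 0.15 to 0.81 and PSMB9 from 0.27 to 0.86 under vehicle, the lowest values of PSMC1 and PSMC5 being those without WT vehicle replicate 2 and that of PSMB9 without BR vehicle replicate 2. Under SI-2 PSMC1 ranged from 0.07 to 0.83 and PSMC5 from 0.17 to 0.70, both lowest without WT SI-2 replicate 2. NFE2L1 ranged from -0.53 to -0.10 under SI-2, and without the library with fibroblast markers it was -0.52, PSMC5 0.26 and PSMB9 0.37.

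The libraries of one line and one replicate number resembled each other whatever the treatment, and for several genes BR and WT lay apart in replicate 2 and close together in replicate 1. PSMC1, an ATPase of the 19S base, had 139 and 146 CPM in the 2 WT replicate 1 libraries (vehicle and SI-2) and 140 and 142 CPM in the BR ones. In replicate 2 it had 79.0 and 86.1 CPM in WT and 163 and 165 CPM in BR. The lines thus lay close together in replicate 1 (log2 fold change -0.02, 95% confidence interval -0.21 to 0.18) and apart in replicate 2, where WT was at its lowest and BR at its highest. PSMC5, another ATPase of the same ring, had 146 and 141 CPM in WT and 146 and 143 CPM in BR in replicate 1, and 92.4 and 98.1 CPM in WT and 177 and 176 CPM in BR in replicate 2.

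This pattern was put to a fit with line and replicate number as the 4 groups, chosen after the values had been seen. Each group then held 1 vehicle and 1 SI-2 library, so its p-values measure only the spread between those 2 libraries, which may come from 1 culture. Within replicate 1, edgeR called 0 of 49 proteasome genes, against 0.389% of all genes. Without adjustment 2 of 49 (4.08%) were under 0.05, against 12.9% of all genes. They were PSME4, an activator of the nucleus (log2 fold change 0.43, edgeR adjusted p = 0.113), and PSMB7 (-0.30, adjusted p = 0.183). DESeq2 called PSME4 there, as 1 of 185 genes called of 13896. Within replicate 2, 18 of 49 were called, against 19.7% of all 13896 genes. The difference between the replicates itself passed for 6 of 49, against 6.32% of all genes.

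The 18 genes went in both directions. PSMC1 (log2 fold change 0.99, 95% confidence interval 0.80 to 1.19), PSMB9 (0.97, 0.64 to 1.29) and PSMC5 (0.89, 0.70 to 1.07) lay furthest above WT, with edgeR adjusted p-values of 0.000843, 0.00398 and 0.000963. For PSMC1 and PSMC5 much of this gap lay in low WT libraries of replicate 2. From replicate 1 to replicate 2 under vehicle, PSMC1 went from 139 to 79.0 CPM in WT and from 140 to 163 CPM in BR. Also higher were PSMA2, PSMA4, PSMB1, PSMC2, PSMD3, PSME3, PSMG3 and PSMG4, with log2 fold changes from 0.32 to 0.57. Of the called genes, PSMB5 lay furthest below WT, with a log2 fold change of -0.84 (95% confidence interval -1.16 to -0.53, edgeR adjusted p = 0.00557). PSMD8, PSME1, PSMD4, PSMG1, PSMA5 and PSMA3 were lower, with log2 fold changes from -0.74 to -0.41. PSMB6 lay further below WT than PSMB5, at -0.94, which edgeR did not call and DESeq2 did.

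Leaving out 1 replicate 2 library left 1 library on that side, and fewer of the 18 genes were called in each of these fits. The library with fibroblast markers, BR SI-2 replicate 2, was among those left out. The share of all genes called in these fits is not reported here, so the fall is not read as a result about the proteasome genes. Of the 8 fits that left out 1 library, those without a replicate 1 library kept all replicate 2 libraries. Those without a replicate 2 library kept the other one of that line, which may come from the same culture. Over the 8 fits the log2 fold change was between 0.95 and 1.07 for PSMC1, 0.86 and 0.94 for PSMC5, 0.82 and 1.16 for PSMB9, and -0.95 and -0.75 for PSMB5. These ranges do not measure the spread between cultures.

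The difference between replicates passed for PSMC1 (1.01), PSMC5 (0.88), PSMB9 (0.83) and PSMA2 (0.59), an alpha subunit, and for PSMB5 (-1.06) and PSME1 (-0.78), a subunit of the PA28 activator that interferon induces, all as log2 values in edgeR with adjusted p-values from 0.0110 to 0.0472. The difference largest in size was that of PSMB6 (-1.32), which edgeR did not call and DESeq2 did. PSMA2 had 240 and 246 CPM in WT and 253 and 225 CPM in BR in replicate 1, and 149 and 154 CPM in WT and 229 and 221 CPM in BR in replicate 2. PSME1 had 133 and 114 CPM in WT and 149 and 129 CPM in BR in replicate 1, and 123 and 129 CPM in WT and 85.0 and 80.3 CPM in BR in replicate 2. So PSMA2 was low in the WT replicate 2 libraries, and PSME1 was low in the BR ones. Without any 1 of the 4 replicate 2 libraries, which left 1 library on that side, none of the 6 differences was called, and without WT SI-2 replicate 1 only those of PSMC1 and PSMC5 were. Over the 8 such fits the differences kept their direction, with log2 values from 0.97 to 1.09 for PSMC1, 0.86 to 0.94 for PSMC5, 0.69 to 1.03 for PSMB9, -1.22 to -0.90 for PSMB5 and -0.89 to -0.64 for PSME1. Each fit kept the other library of the same line and replicate number, so these ranges do not measure the spread between cultures.

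**Figure D3:**
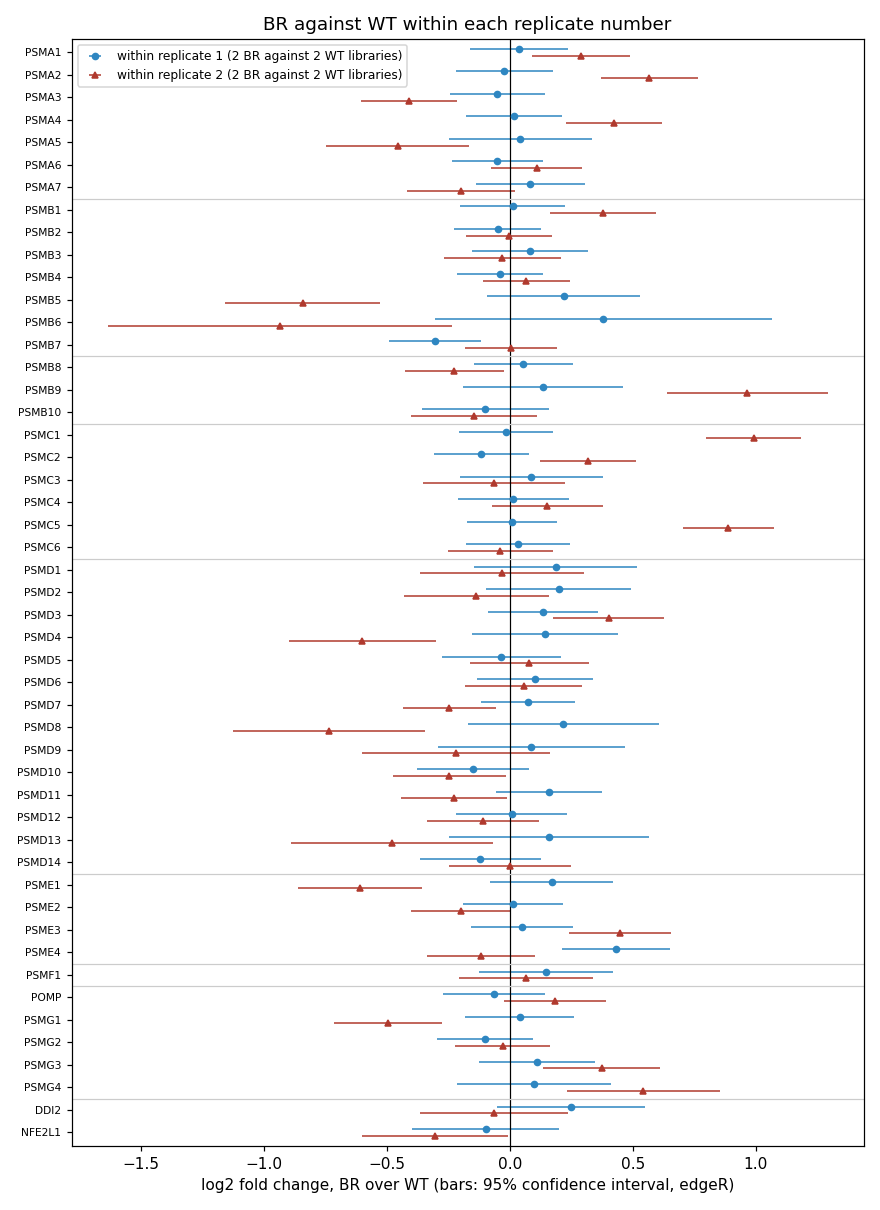
Log2 fold change of BR over WT with its 95% confidence interval for each proteasome gene, within replicate 1 (blue circles) and within replicate 2 (red triangles), 2 BR against 2 WT libraries in each. The circles lie near 0, between -0.30 and 0.43, while the triangles spread from -0.94 (PSMB6) to 0.99 (PSMC1).

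The promoters of the 3 genes that lay furthest above WT in BR within replicate 2 and of PSMB5, which lay below, are shown. They allow these members to be compared in sequence. RefSeq (GRCh38.p14) gave promoter windows of 300 bases, from 250 before to 50 after a start, for 44 of the 50 genes, and PSMA7, PSMB1, PSMB6, PSMB7, PSMD4 and PSMG3 were not matched. The 250 bases before the first listed start are printed, 5′ to 3′ on the gene's own strand. Capitals mark matches on either strand to TGACNNNGC, the core of the antioxidant response element bound by NFE2L1 and its relatives, to CCAAT, and to CGGAAG, the core of ETS sites; the 3 motifs do not overlap in these windows. The PSMC1 window lies on chr14:90256303-90256552 (plus strand), that of PSMC5 on chr17:63827181-63827430 (plus strand), that of PSMB9 on chr6:32853942-32854191 (plus strand) and that of PSMB5 on chr14:23035221-23035470 (minus strand).
PSMC1: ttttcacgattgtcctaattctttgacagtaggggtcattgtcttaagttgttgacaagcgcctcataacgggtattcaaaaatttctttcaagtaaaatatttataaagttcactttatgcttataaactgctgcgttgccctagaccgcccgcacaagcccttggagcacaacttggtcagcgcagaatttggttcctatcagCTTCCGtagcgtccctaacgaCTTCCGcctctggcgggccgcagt
PSMC5: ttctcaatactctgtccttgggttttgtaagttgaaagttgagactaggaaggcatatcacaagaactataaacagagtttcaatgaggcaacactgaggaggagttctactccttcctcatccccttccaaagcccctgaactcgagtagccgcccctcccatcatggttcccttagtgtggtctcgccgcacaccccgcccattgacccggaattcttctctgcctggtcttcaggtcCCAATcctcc
PSMB9: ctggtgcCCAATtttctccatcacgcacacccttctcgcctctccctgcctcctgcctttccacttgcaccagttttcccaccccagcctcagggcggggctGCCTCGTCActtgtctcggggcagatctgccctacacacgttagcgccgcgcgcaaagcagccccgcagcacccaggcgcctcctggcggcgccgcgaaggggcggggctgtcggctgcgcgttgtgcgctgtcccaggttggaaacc
PSMB5: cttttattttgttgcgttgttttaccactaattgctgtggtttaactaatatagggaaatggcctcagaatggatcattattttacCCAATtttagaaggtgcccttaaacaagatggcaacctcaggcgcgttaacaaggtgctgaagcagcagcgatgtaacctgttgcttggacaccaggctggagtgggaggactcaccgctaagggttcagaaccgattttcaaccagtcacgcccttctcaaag

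Within the 250 printed bases no motif was in all 4 promoters. PSMC1 held 2 ETS cores close to its start, PSMC5 and PSMB5 a CCAAT each, and PSMB9 a CCAAT and an antioxidant response core. A second PSMC5 start, further along the gene, also had an antioxidant response core before it. These statements cover the printed bases only, while the counts that follow are over the whole windows of 300 bases, in which PSMC5 also had an ETS core. Over all windows, TGACNNNGC was found in 15 of 54 proteasome windows (27.8%) and in 13.3% of the 35116 promoters in the table, CGGAAG in 28 of 54 (51.9%) and in 19.5%, and CCAAT in 21 of 54 (38.9%) and in 34.6%. A match is a run of letters only; binding was not measured.

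SI-2 was compared with vehicle to see whether the SRC-3 inhibitor moved proteasome transcripts in either line. Over both lines edgeR called 0 of 49 genes, against 0% of all 13520, and 2.22% of all genes but 0 of these 49 were at an unadjusted p under 0.05; DESeq2 and limma called 0 too. Within BR (0 of 49 called, 0% of all genes) and within WT (0 of 49 called, 0% of all genes) the picture was the same, with 0 of 49 at an unadjusted p under 0.05 against 1.2% and 0.533% of all genes. The difference of the SI-2 effect between the lines was called in 0 of 49 (0% of all genes), with 0 of 49 at an unadjusted p under 0.05 against 0.533% of all.

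The direction was more often down than up, by small amounts, except in the WT replicate 2 pair. There 24 of 49 genes were lower, with a median log2 value of 0.001. In the other pairs 34 (WT replicate 1), 37 (BR replicate 1) and 38 (BR replicate 2) were lower, with medians of -0.08, -0.13 and -0.04. Over both lines 38 of 49 genes were lower with SI-2, with a median log2 fold change of -0.08, against 0.00 over all genes. All 7 alpha subunits, 5 of 7 constitutive beta subunits and 16 of 20 genes of the 19S group (PSMC and PSMD) had values below 0, the 19S median being -0.09. In 15 of 49 genes (30.6%) the SI-2 library was lower in all 4 pairs of the same line and replicate number, against 12% of all genes, and in 4 of 49 (8.16%) it was higher in all 4, against 9.82%. The 15 were POMP, PSMA3, PSMA6, PSMA7, PSMB6, PSMC3, PSMC6, PSMD1, PSMD4, PSMD8, PSMD9, PSMD11, PSMD13, PSMD14 and PSMG1, and the 4 were PSMB7, PSMB9, PSMC1 and PSMD5. The 19S genes were lower by a median log2 value of -0.18 in the WT replicate 1 pair and -0.13 in the BR replicate 1 pair, and of -0.03 and -0.05 in the replicate 2 pairs.

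PSMB6 had the smallest p, with a log2 fold change of -0.54 (95% confidence interval -1.13 to 0.05, edgeR adjusted p = 0.999). Its log2 ratios were -0.90 in WT and -0.72 in BR in the replicate 1 pairs, and -0.21 in each replicate 2 pair. It was followed by PSMD9 (-0.23), the ATPase PSMC3 (-0.17), PSMD13 (-0.27) and PSMD8 (-0.27), each lower in 4 of 4 pairs and each with an adjusted p of 0.999. Within BR alone PSMB6 (-0.56), NFE2L1 (-0.26), the deubiquitinase PSMD14 (-0.19), PSMD9 (-0.21) and PSMD5 (0.15) had the smallest p-values, and within WT alone PSMD9 (-0.25), PSMD13 (-0.34), PSMB6 (-0.52), PSMC3 (-0.18) and PSMA5 (-0.20), with edgeR adjusted p-values of 0.99995 throughout. For the difference between the lines these were NFE2L1 (-0.22), PSMB1 (-0.20), PSME3 (-0.17), PSMC2 (-0.16) and PSMB10 (0.16), all as log2 values with edgeR adjusted p-values of 0.99998. Single libraries moved several of these. Within BR, PSMB6 ranged from -1.06 to 0.20 (without BR vehicle replicate 2 and without BR vehicle replicate 1) and NFE2L1 from -0.45 (without BR SI-2 replicate 2) to -0.09 (without BR SI-2 replicate 1). Over both lines PSMD8 was -0.16 and PSMD13 -0.18 without BR SI-2 replicate 2.

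The genes singled out by role did not pass the test for SI-2 over both lines. The log2 fold changes were -0.16 for PSMB5 (95% confidence interval -0.63 to 0.30), -0.04 for PSMB8 (-0.28 to 0.21), 0.19 for PSMB9 (-0.32 to 0.70) and 0.10 for PSMB10 (-0.16 to 0.36). They were -0.14 for NFE2L1 (-0.47 to 0.20), -0.09 for DDI2 (-0.37 to 0.19) and -0.06 for POMP (-0.28 to 0.17), all with an edgeR adjusted p of 0.999. Without BR SI-2 replicate 2, the library with fibroblast markers, PSMB5 was -0.02 and PSMB9 0.03. Over all fits that left out 1 library, PSMB5 reached -0.34 (without WT SI-2 replicate 2) and PSMB9 0.40 (without BR vehicle replicate 2), PSMB10 ranged from 0.02 to 0.19, and NFE2L1 from -0.28 (without WT SI-2 replicate 2) to -0.03 (without BR SI-2 replicate 1).

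A fit with a term for each line and replicate number, added after the values had been seen, compared SI-2 with vehicle inside those pairs. It called 0 of 49, the smallest adjusted p being 0.339 for PSMB6 (log2 fold change -0.52, 95% confidence interval -0.79 to -0.24, edgeR). At an unadjusted p under 0.05 it had 9 of 49 (18.4%), against 13.9% of all genes: PSMB5, PSMB6, PSMC3, PSMD1, PSMD4, PSMD8, PSMD9 and PSMD13 lower and PSMB9 higher.

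**Figure D4:**
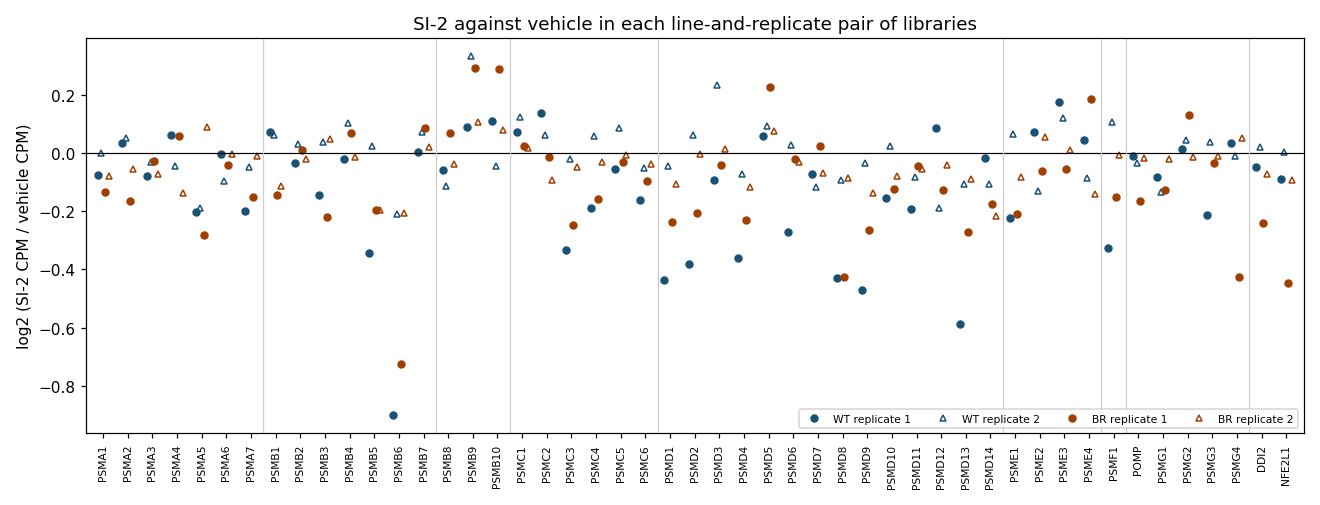
Log2 ratio of SI-2 over vehicle CPM for each proteasome gene in the 4 pairs of libraries of the same line and replicate number (blue WT, orange BR, filled circles replicate 1, open triangles replicate 2). PSMB6 is lowest, at -0.90 and -0.72 in the replicate 1 pairs, and the 19S genes lie mostly below 0 in those pairs.

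The replicate numbers were compared directly because they moved with several results. Over the 4 conditions 35 of 49 genes were lower in replicate 2, with a median log2 fold change of -0.10, against -0.01 over all genes. All 20 genes of the 19S group (PSMC and PSMD) had values below 0 (median -0.15). These values average over the lines. PSMC1, PSMC2 and PSMC5 were lower in replicate 2 in WT and higher in BR, under both treatments. The ATPases' median log2 deviation from each gene's mean went from 0.12 to -0.18 (WT vehicle) and 0.05 to -0.16 (WT SI-2). In BR it was 0.12 in both vehicle libraries and went from 0.02 to 0.06 with SI-2. The non-ATPase median went from 0.19 to 0.05 and -0.04 to -0.02 in WT. In BR it went from 0.20 to -0.16 and 0.11 to -0.23. PSMD2, a scaffold subunit of the 19S base, was the 1 gene called, against 0.925% of all genes. It had 299, 229, 325 and 281 CPM in the replicate 1 libraries (WT vehicle, WT SI-2, BR vehicle, BR SI-2) and 195, 203, 181 and 181 CPM in the replicate 2 libraries. Its log2 fold change was -0.57 (95% confidence interval -0.83 to -0.32, edgeR adjusted p = 0.0490). This call was lost in 7 of the 8 fits that left out 1 library (all but that without WT SI-2 replicate 1), with no filter, with both limma settings and with condition terms, while the log2 fold change over the 8 fits stayed between -0.67 and -0.49. At an unadjusted p under 0.05 there were 13 of 49 genes (26.5%), against 16.9% of all. PSMB4 and NFE2L1 were the 2 of these that were higher in replicate 2 (log2 fold changes of 0.25 and 0.28), and PSMA1, PSMA2, PSMB3, PSMC6, PSMD1, PSMD2, PSMD3, PSMD6, PSMD14, PSME4 and PSMF1 were lower. The labels do not say what a replicate number stands for.

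Genes that work with the proteasome were followed through 4 lists. Of 16 proteasome-associated factors (ubiquitin receptors, deubiquitinases and other partners), 5 were higher and 11 lower in BR over both treatments and 0 were called by edgeR, with the thioredoxin-like TXNL1 (log2 fold change -0.38, adjusted p = 0.146) and the ligase UBE3C (0.32, 0.181) having the smallest p-values. Of 14 factors of NFE2L1 maturation, partnership and turnover, 2 were higher and 12 lower and 0 called, led by the small MAF proteins MAFF (-0.56, adjusted p = 0.233) and MAFG (-0.31, 0.276). The 6 genes of ubiquitin and its activation divided into 3 and 3 with 0 called, UBB (0.10, adjusted p = 0.617) coming first. Of 9 genes of class I antigen processing, 6 were higher and 3 lower with 0 called, among them the peptide-trimming ERAP1 (log2 fold change -0.36, adjusted p = 0.243). At an unadjusted p under 0.05 these lists had 6 of 16, 3 of 14, 0 of 6 and 3 of 9 genes, against 14.4% of all genes.

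Within replicate 2 alone, where 19.7% of all genes were called, 12 of the 16 associated factors were called by edgeR, 3 higher and 9 lower, with the ubiquitin shuttle factors RAD23B (log2 fold change -0.81, adjusted p = 0.00192) and UBQLN1 (-0.68, 0.00288) first. Of the 14 NFE2L1 factors 4 were called, 1 higher and 3 lower, including MAFG (-0.59, adjusted p = 0.00561) and the ER ligase SYVN1 (-1.24, 0.0159). One ubiquitin gene, the activating enzyme UBA1 (-0.42, adjusted p = 0.0498), was lower, and UBA6 (-0.34, 0.0530) did not pass. Of the 9 antigen processing genes 2 were higher, among them ERAP2 (0.47, adjusted p = 0.00683), and 1 was lower. With SI-2 over both lines 0 genes of the 4 lists were called, the smallest unadjusted p being that of AKIRIN2, a factor of proteasome import into the nucleus (log2 fold change 0.33, edgeR adjusted p = 0.999).

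Some of the gene values depend on how shared reads were divided. Counts were whole in all libraries for 35 of the 50 genes and fractional in some library for 15, among them PSMB5, PSMC1, PSMC5, NFE2L1, DDI2, PSMA5 and PSMB2, so the values of those 15 hold estimated shares. Over 1 transcript was listed for 34 of the 50 genes. The main transcript took between 98.4% and 99.8% of the reads of PSMC1 and between 82.1% and 93.2% of those of PSMC5, and its share overlapped between the lines in both. For PSMB8 the larger of 2 transcripts took between 71.8% and 81.4%, and for PSMB5 the largest of 4 took between 54.7% and 60.1%.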

How the data were processed

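RNA of LP-1 cells was extracted with Trizol and sequenced on the BGISEQ-500 platform. The authors removed reads with over 20% of bases of a quality under 10 and assembled the clean reads into Unigenes, and the submitters' processing notes list BWA, Bowtie2, RSEM and hg19 without versions or roles. They deposited estimated counts and FPKM per gene and per transcript, with 8 columns of condition means, which were not used. Their tables of comparisons hold fold changes and q-values from DEGseq and were not used.

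The estimated counts were rounded, filtered with filterByExpr and scaled by TMM (factors 0.971 to 1.06). Tests used edgeR 4.0.16 (quasi-likelihood), over all 13896 genes for the 4 conditions (common biological coefficient of variation 0.179) or 13520 for 2 groups of 4 libraries, with Benjamini-Hochberg adjustment over all genes. FPKM was used to compare genes with each other, for the marker levels and in limma. It was also used for the ratio of the highest to the lowest library and for the ratios of immune to constitutive subunits. Alternatives were RLE factors, library size only, no filter, a filter of CPM 1 or more in 2 or more libraries, DESeq2 1.42.0, limma 3.58.1 on log2(FPKM + 1) and log2(FPKM + 0.1), the replicate number as a block, only the libraries compared, condition terms, and leaving out each library. The fit by line and replicate number, its alternatives and the term for each line and replicate number were added after the values had been seen. The steps were tested on simulated data. Work was done in R 4.3.3 and Python 3.11.15.

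The members and the gene lists were chosen with earlier results of these data known. Named genes were those past an adjusted p of 0.05 in a comparison or, where there were none, the 5 with the smallest p, and PSMB5, PSMB8, PSMB9, PSMB10, NFE2L1, DDI2 and POMP in the comparisons over both treatments or both lines, with up to 2 genes from each other list; the values of some of these are not reported here. Counting error is small at these depths, and 2 libraries a condition limit the precision.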

Additional observations from a re-analysis of the deposited data

Results flagged for a closer look

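A total of 6 proteasome genes had a BR against WT difference that itself differed between replicate 2 and replicate 1 in edgeR (line by replicate interaction, adjusted p under 0.05 over 13896 genes, 878 genes called). As log2 values of replicate 2 minus replicate 1 these were 1.01 for PSMC1, 0.88 for PSMC5, 0.83 for PSMB9 and 0.59 for PSMA2, and -1.06 for PSMB5 and -0.78 for PSME1. PSMB6 had the difference largest in size, -1.32, and was not called in edgeR. The share, 6 of 49, lies beside 6.32% of all genes. What the replicate number stands for is not given in the labels, so for these genes a line difference seen in 1 replicate number and a difference between cultures or libraries within a line cannot be told apart.

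No library stood apart within its line for the 33 proteasome genes named or singled out, by a test of the gap between an extreme value and its neighbour in the 66 groups of 4 libraries. By chance about 1 in 20 such groups is marked. The test marks only a library that lies alone. Where the libraries of a line divide 2 and 2 by replicate number, an extreme value has a close neighbour and is hardly marked. PSMC1 in WT is such a case, with 139 and 146 CPM in replicate 1 and 79.0 and 86.1 CPM in replicate 2.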

How the results depend on the processing

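The count of proteasome genes called stayed at 0 under every alternative in the 7 comparisons of lines and treatments (under vehicle, under SI-2, over both treatments, SI-2 within each line, over both lines and their interaction), also without each library. For replicate 2 against replicate 1 the 1 gene called became 4 with DESeq2 and 0 with no filter, both limma settings and condition terms, and ranged from 0 to 2 without each library. Over all genes the 125 called became 746 with DESeq2, 96 with no filter, and 62 and 56 with limma. Within replicate 1, DESeq2 called 1 of the 49 genes, beside 185 of all 13896 genes. Within replicate 2 the 18 ranged from 2 to 21 without each library. The difference between the replicates, 6 genes, became 12 with DESeq2, 10 with limma on log2(FPKM + 1) and 13 with SI-2 as a term. Over all genes the 878 called also rose, to 1404 with DESeq2 and 1023 with limma on log2(FPKM + 1). The number over all genes with SI-2 as a term is not reported here. The count of 6 also moved when 1 library was left out, which left 1 library in a group. Of the named genes, 3 changed sign without a library: the log2 fold change of SI-2 against vehicle for PSMB6 in BR ranged from -1.06 to 0.20 (without BR vehicle replicate 2 and without BR vehicle replicate 1), that for PSMB8 over both lines from -0.096 to 0.043 (without WT SI-2 replicate 2 and without WT vehicle replicate 2; 0.0021 without WT SI-2 replicate 1), and the difference of the SI-2 effect between the lines for PSMB10 from -0.020 to 0.31 (without WT vehicle replicate 2 and without BR vehicle replicate 2); the causes were not tested. Leaving out 1 library lost the call in another 96 gene values. Only values called with all libraries could lose it. Those were the 18 genes within replicate 2, the 6 of the difference between the replicates and PSMD2, each over the fits that left out 1 library. Several sizes moved by more than 1.5 times, as given beside those genes above.

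With the replicate block, 0 proteasome genes were called in each of the 7 comparisons, and at an unadjusted p under 0.05 there were 11 of 49 for BR against WT over both treatments, against 6 without it; over all genes the share was 19.1%, beside 22.4% of the proteasome genes; all genes called there rose from 49 to 155. As a check of the pairing, replicate 2 minus replicate 1 correlated over 10414 genes at r = 0.62 between WT vehicle and WT SI-2 and 0.58 between BR vehicle and BR SI-2, but between -0.28 and 0.21 across the lines, so same-numbered libraries deviated together more strongly within a line than across the lines. Genes are not independent replicates, and the 2 numbers are a hint from the data, not the design.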
